A study of Mus musculus with 4 samples.

Results

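Peaks of RNA polymerase II (Pol II) far from annotated genes were taken from a ChIP-seq list of primary mouse osteoblasts treated with OSS_128167, an inhibitor of SIRT6, which is an NAD-dependent deacylase of chromatin. ChIP-seq sequences the DNA that an antibody against a protein pulls down from fixed cells. A peak was counted as distal where it was shorter than 1000 bp, lay on chromosomes 1 to 19 and was more than 20 kb from the boundaries of every gene of any biotype in a RefSeq table. Its assembly is GRCm38.p6, the patched form of mm10. The rule found 8890 of the 40748 peaks of the OSS_128167 list and 324 of the 1694 peaks of the untreated list. Members were chosen by position, length and presence in the list, so their folds and false discovery rates (FDR) come from the same peak calls and are given as a description, without a test.

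Both groups were young mouse cells, with no dose or duration of OSS_128167 given in the sources used here. Mesenchymal stem cells grown out of bone pieces were passaged and kept for 3 days in osteogenic medium. The untreated title names WT and the OSS_128167 title does not, while the treatment field of the labels names the inhibitor for all 4 samples, so the untreated group rests on its title. The deposited OSS_128167 list also carries SIRT6 in its name. Each condition had 1 Pol II library and 1 input, and the input libraries were not used here. With 1 library per condition no difference between the lists was tested, and the lists give no read totals, so depth is unknown. A gene-end peak, meaning a peak of any length within 1 kb of either gene boundary, was found at 14.9% of protein-coding genes in the OSS_128167 list and at 0.418% in the untreated list. Of 10 osteoblast markers 4 had a gene-end peak under OSS_128167 (Runx2, Sp7, Col1a1 and Col1a2) and 1 did in the untreated list (Col1a2). Of 10 macrophage and blood markers 1 did (Cd68), of 5 adipocyte markers 0, of 4 chondrocyte markers 1 (Sox9) and of 4 endothelial markers 1 (Pecam1), and none of these in the untreated list.

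Pol II outside genes has several known sources. Active enhancers recruit it and are transcribed into short, unstable RNAs, transcripts missing from an annotation carry it along their length, and polymerase that has passed the end of a gene is still on the template downstream of it. A permissive peak list also holds places where local read density rises by chance. Enhancers of developmental genes can lie far from them, as is well known for Sox9, Bmp2 and Shh.

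The OSS_128167 peak group with the most support lay between Wnt7b and Ppara on chromosome 15 and ran into the genes of the microRNAs let-7c-2 and let-7b. These microRNAs are small RNAs that lower the output of messenger RNAs matching their seed, and the let-7 family is abundant in differentiated cells. Their mature sequences are shown because the distal peaks led to them. Bases 2 to 8, the seed, are in capitals, the strand is plus, and the sequences are those of RefSeq on GRCm38.p6.
let-7c-5p, chr15:85706616-85706637: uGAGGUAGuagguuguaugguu
let-7b-5p, chr15:85707325-85707346: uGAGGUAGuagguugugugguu
let-7c-2-3p, chr15:85706664-85706685: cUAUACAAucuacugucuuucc
let-7b-3p, chr15:85707379-85707400: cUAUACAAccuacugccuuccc
The 5p strands share the seed GAGGUAG and the 3p strands share UAUACAA.

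The run was picked out after its values had been seen. It held 26 peaks with at most 1297 bp between neighbours, from 85671308 to 85711770, and the peaks covered 75.9% of these 40.5 kb. Its first 6 peaks were distal, with folds of 2.42, 4.15, 3.66, 3.50, 2.89 and 4.57 in order of position, and 4 of them had an FDR of at most 0.05. The next peaks were longer than 1000 bp or within 20 kb of Lncppara, a long non-coding RNA gene. Folds past that limit reached 5.19, 5.30 and 5.22, and the highest of the run was 6.75, with an FDR of 1.54e-10, in a peak of 4391 bp from 85706607 to 85710997 that covers Mirlet7b and all but the first bases of Mirlet7c-2. Over the whole run 19 of 26 peaks had an FDR of at most 0.05. Wnt7b, a Wnt ligand, ended 89.5 kb before the first peak and Ppara, a nuclear receptor of fatty acid metabolism, began 57.2 kb after the last distal one, and neither had a peak within 1 kb of a boundary. The untreated list had 0 peaks in the run.

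**Figure D1:**
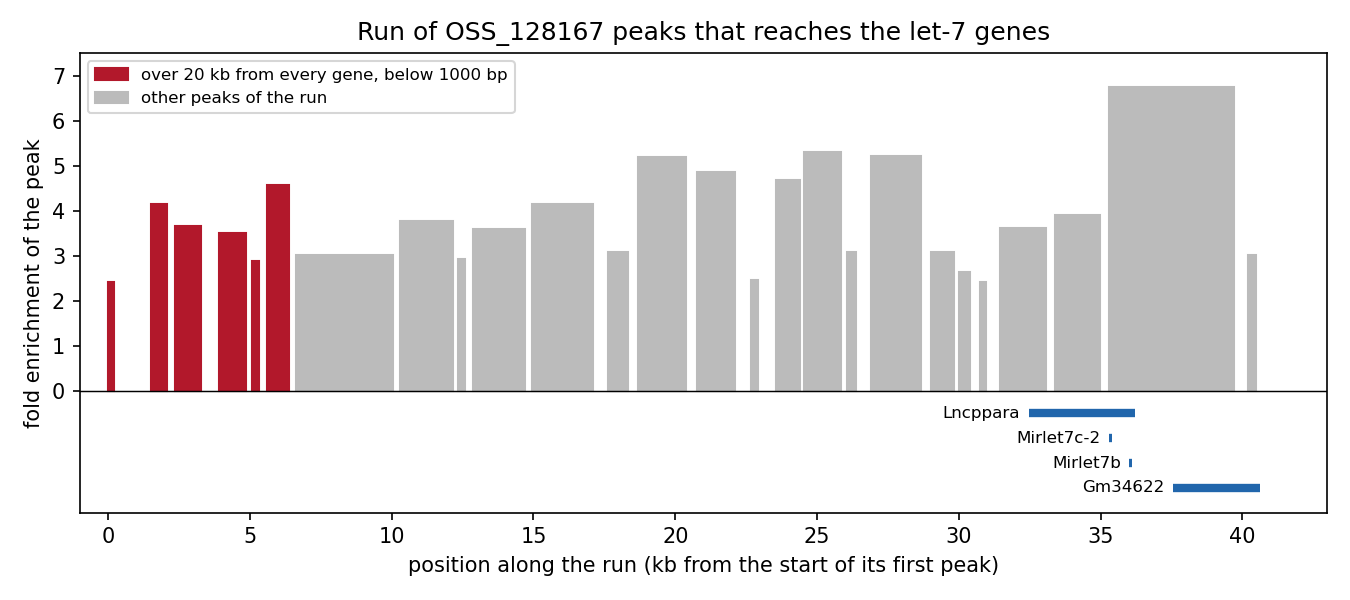
Fold enrichment of the 26 OSS_128167 peaks in the run on chromosome 15 (y axis, the authors' ratio) against position in kb from the start of the first peak (x axis), with bar width equal to peak length and annotated genes as blue lines below. The 6 red bars are the distal peaks, with folds of 2.42 to 4.57, and the bar over the let-7 genes reaches 6.75.

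The annotated start nearest to these peaks was that of Lncppara, 26.1 kb from the last of them. Its promoter window, from 250 bases before to 50 bases after the start on the plus strand, lay within a peak of the run with a fold of 3.61 (85702773 to 85704387, FDR 0.0212). It is shown because it is the first annotated promoter that the run meets, with CCAAT in capitals.
Lncppara promoter, chr15:85703523-85703822: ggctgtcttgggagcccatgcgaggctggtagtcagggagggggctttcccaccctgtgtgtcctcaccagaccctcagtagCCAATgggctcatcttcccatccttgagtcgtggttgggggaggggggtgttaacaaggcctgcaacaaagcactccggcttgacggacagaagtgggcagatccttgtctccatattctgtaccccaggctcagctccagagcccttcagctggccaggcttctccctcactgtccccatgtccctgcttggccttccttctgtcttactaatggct
Of 3 motifs searched on both strands, CCAAT was found and TATAAA and GGGCGG were not. Among 32851 RefSeq promoter windows of this length 37.4%, 13.6% and 35.7% held them. The G and C content of the window was 58.7%, against a median of 52.7% over these windows.

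Elsewhere the distal peaks were mostly alone. When listed peaks of any length and place were joined across gaps of at most 2 kb, 8507 runs held a distal peak. Of these 8136 (95.6%) were a single peak, 351 were pairs, 19 had 3 peaks and 1, the run at let-7, had more. Over the whole OSS_128167 list on these chromosomes 40093 peaks formed 34439 runs, so most of its runs were single too, in a share not counted. Of these 34439 runs 323 (0.938%) held at least 5 peaks. Joining across 1 kb or 5 kb left the let-7 run as the one distal run of at least 5 peaks, with next largest runs of 3 and 4. In the untreated list 293 of 306 runs with a distal peak were single and 1 held 5 peaks.

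Distal peaks were weak within their list. Of the 8890 members 954 (10.7%, exact 95% interval 10.1 to 11.4) had an FDR of at most 0.05, beside 14.8% of all OSS_128167 peaks below 1000 bp on these chromosomes. The share was 19.5% (18.2 to 20.8) among 3739 peaks 1 to 5 kb outside genes, 22.8% (20.6 to 25.1) among 1407 peaks within 1 kb outside genes, and 12.4% (11.7 to 13.1) among 9714 peaks inside genes over 100 kb. Among 4561 peaks 5 to 20 kb outside genes it was 13.1% (12.1 to 14.1). The intervals cover counting only, and neighbouring peaks are not independent. At an FDR of at most 1e-05 there were 5 distal peaks, against 28 in the smaller class 1 to 5 kb outside genes.

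The upper tail of fold was thin as well. Distal folds ran from 1.66 to 5.42 with quartiles of 2.52, 2.87 and 3.20, and the class maxima were 7.91 at 1 to 5 kb and 9.70 inside genes over 100 kb. A fold of at least 4 was reached by 98 distal peaks (1.10%, 0.896 to 1.34), by 4.36% (3.73 to 5.06) at 1 to 5 kb and by 1.83% (1.58 to 2.12) inside long genes. At 5 to 20 kb the share was 1.53% (1.20 to 1.94), with an interval that overlaps the distal one. The median was 2.87 in each of these classes. Fold takes few values where signal is low, and 1160 distal peaks (13.0%) had the same fold of 2.87.

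**Figure D2:**
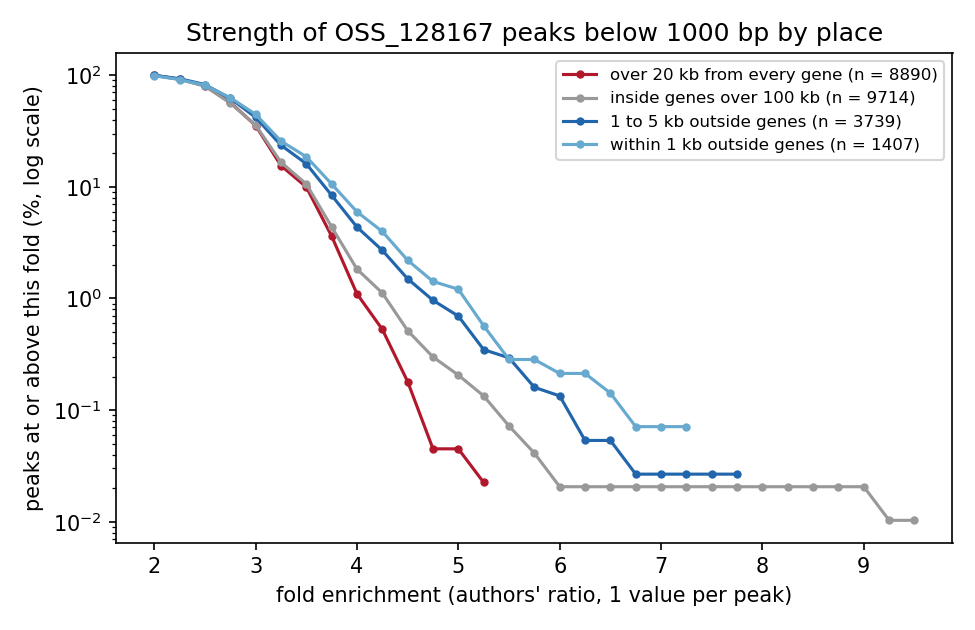
Share of OSS_128167 peaks below 1000 bp (y axis, percent on a log scale) at or above each fold enrichment (x axis) in 4 classes of position, with n peaks per class in the key. The distal curve is the lowest from a fold of 4 upward and ends below 5.5, while 4.36% of the peaks 1 to 5 kb outside genes reach a fold of 4.

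Pileup and length of distal peaks were similar to or below those nearer to genes. The pileup, a height of signal in whole units, had quartiles of 7, 8 and 9 in distal peaks and 7, 8 and 10 at 1 to 5 kb, while its maximum was 88 in distal peaks, 59 at 1 to 5 kb and 39 inside genes over 100 kb. Median length was 262 bp, beside 268 bp at 5 to 20 kb and 294 bp at 1 to 5 kb. The shortest length in the list, 226 bp, was that of 2959 distal peaks (33.3%), against 30.5% at 5 to 20 kb and 24.1% at 1 to 5 kb. If fold is read as the pileup plus 1 over a background plus 1, the background of 39.0% of distal peaks was at the lowest value of the list. This was close to the 38.6% at 5 to 20 kb and above the 30.7% at 1 to 5 kb. At the other end the highest background under a distal peak was 24.8 times that value. Across distal peaks Spearman's rho was 0.01 between fold and length and 0.63 between fold and pileup, which enters the fold, as a description within 1 library.

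Folds on either side of the limits of the rule overlapped. The 5 peaks just over 20 kb from a gene (20004 to 20027 bp) had folds of 2.52 to 3.07, and the 5 just within it (19981 to 19998 bp) 2.26 to 3.53. The longest 5 members (844 to 984 bp) had folds of 2.26 to 3.66. Beyond 1000 bp 4 peaks met the distance rule, with lengths of 1034 to 3425 bp and folds of 2.87 to 3.77, and 2 of them belonged to the let-7 run.

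The 20 distal peaks of highest fold reached 4.42 to 5.42 and were short and scattered. Their lengths were 231 to 768 bp, their pileups 12 to 17 and their FDR at most 9.60e-04. The highest, with a fold of 5.42 and an FDR of 8.97e-07, lay on chromosome 15 from 89963404 to 89963669, between Syt10, which encodes a synaptotagmin, 121 kb away, and Alg10b, a glycosyltransferase gene, 261 kb away. The next, with 5.39, was on chromosome 8 from 96159229 to 96159547. It stood 271 kb from Got2, a mitochondrial aminotransferase gene that itself had a gene-end peak of 3.61. Tmx4, a thioredoxin-related membrane protein gene, was 26.9 kb from a peak with 5.03 on chromosome 2.

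Of the 20 peaks 17 had no protein-coding gene with a gene-end peak on either side, 3 had 1 on 1 side and 0 had them on both. This is close to the distal peaks as a whole, of which 85.2% (7570 of 8883) had none on either side. The 3 genes were Got2, Pom121l12 (gene-end fold 2.44) and Pcdh18 (4.31), a protocadherin gene 1486 kb from its distal peak. A peak of 4.51 on chromosome 15 was 218 kb from Angpt1, the ligand of the receptor Tie2. A peak of 4.44 on chromosome 4 lay between Ripk2, a kinase of innate immune signalling, 392 kb away, and Mmp16, a membrane-type metalloprotease, 1297 kb away. The long gap between Lrfn5, a synaptic adhesion gene, and Fscb on chromosome 12 held 2 peaks of 4.67, 1 of them 723 kb from Lrfn5 and the other 320 kb from Fscb. Csmd3 and Cdh9, best known from neurons, were the nearest coding genes of peaks of 4.47 (65.3 kb) and 4.42 (685 kb). Near families of recent duplicates, a peak of 4.67 lay between Skint5 and Skint11 and another of 4.67 between Pramel47 and Gm46935.

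The density of distal peaks was close to that of sequence 5 to 20 kb from genes. Sequence more than 20 kb from every gene came to 627 Mb in 7331 stretches, which is 26.1% of the span from the first to the last gene, and held 14.2 OSS_128167 peaks per Mb (13.9 to 14.5). Assembly gaps inside these stretches were not removed. By distance the density was 23.7 per Mb within 1 kb of genes, 20.6 at 1 to 5 kb and 13.1 at 5 to 20 kb. It was 13.1 at 20 to 50 kb (12.6 to 13.5), 14.7 at 50 to 100 kb, 15 at 100 to 200 kb and 15.7 at 200 to 500 kb (14.6 to 16.8). Density thus did not fall with distance beyond 20 kb, and the share with an FDR of at most 0.05 was 9.90% at 20 to 50 kb (8.93 to 10.9) and 11.5% at 200 to 500 kb (9.42 to 13.8). Beyond 500 kb there were 42 peaks in 2.33 Mb.

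**Figure D3:**
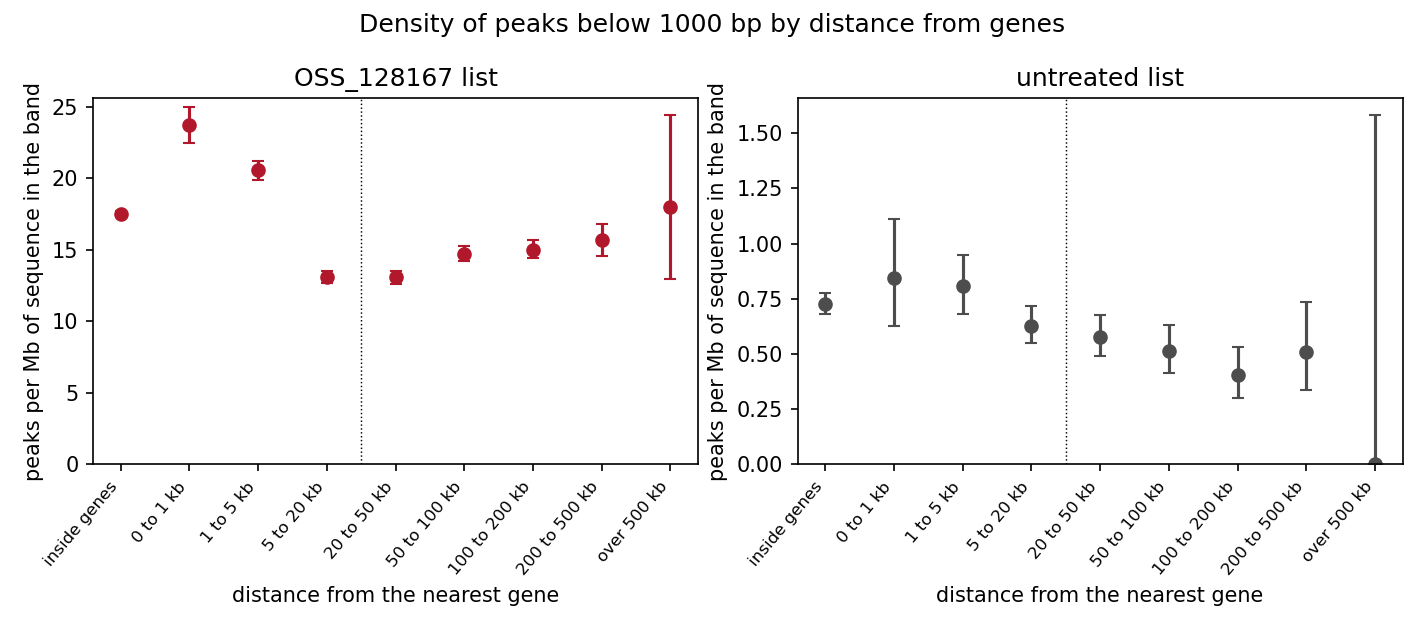
Peaks below 1000 bp per Mb of sequence (y axis) by distance from the nearest gene (x axis) in the OSS_128167 list (left) and the untreated list (right), with exact 95% Poisson intervals for counting. Right of the dotted line lie the distal bands, at 13.1 to 18.0 peaks per Mb in the OSS_128167 list, and both lists are densest within 1 kb of genes (23.7 and 0.842).

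In the OSS_128167 list distal peaks were fewer per Mb beside genes with Pol II at their ends, while the untreated list had few distal peaks beside such genes. Where neither flanking protein-coding gene had such a peak the density was 14.7 per Mb (14.4 to 15.1, 7570 peaks). It was 11.8 (11.1 to 12.4, 1270 peaks) where 1 of them did and 9.46 (6.85 to 12.7, 43 peaks) where both did. Counting gene-end peaks with an FDR of at most 0.05, which 5.50% of protein-coding genes had, the densities were 14.5, 9.86 and 7.06 per Mb, the last from 4 peaks. In the untreated list, with its own gene-end peaks, the order was reversed, at 0.503 (0.448 to 0.562, 312 peaks), 1.81 (0.867 to 3.32, 10 peaks) and 8.05 per Mb (0.975 to 29.1, 2 peaks). The share of distal peaks with an FDR of at most 0.05 was 10.8%, 10.1% and 11.6% of the OSS_128167 list for 0, 1 and 2 such genes at any FDR. The nearest coding gene of 652 distal peaks (7.33%, 6.80 to 7.90) had a gene-end peak. Among the 1935 different genes that were nearest the share was 10.5%. These densities were not tested against each other, and the length, base composition and chromosome of the stretches were not matched. Untreated peaks were uneven across chromosomes in both kinds of sequence. Chromosome 10 had 2.76 distal and 1.84 other peaks per Mb, and chromosome 12 had 0 and 0.0485. The part of this in the untreated order was not tested.

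Gene lists differed in distal density. A list's sequence is all distal sequence whose nearest protein-coding gene on either side is a member, and 1 stretch can count for 2 lists. Beside osteoblast lineage genes there were 6.13 distal peaks per Mb (4.16 to 8.69, 31 peaks in 5.06 Mb), beside extracellular matrix genes 6.25 (4.21 to 8.92, 30 peaks) and beside immediate early genes, the rapid transcriptional response to stimuli, 6.53 (4.58 to 9.04, 36 peaks). Mesenchymal transcription factors had 9.25 (7.78 to 10.9), Wnt, FGF and hedgehog genes 8.71 (5.74 to 12.7) and BMP and TGF-beta genes 10.2 (7.60 to 13.3). All distal sequence had 14.2. Stromal niche and adhesion genes, at 13.5 (11.2 to 16.2), had an interval that includes this value. Genes best known from neurons had 16.9 (15.9 to 17.9, 1076 peaks in 63.7 Mb), and olfactory and vomeronasal receptor genes 16.8 (13.2 to 21.1). The neuronal list was drawn up as genes beside deserts, which are long stretches without genes. Its 63.7 Mb lay in 320 stretches, against 5.06 Mb in 68 for osteoblast lineage genes. Stretch length was not matched between lists, and its part in their densities was not tested.

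Gene-end peaks of these lists did not follow 1 order with distal density. They were found at 22 of 26 immediate early, 13 of 26 matrix, 7 of 23 Wnt, FGF and hedgehog, 12 of 42 mesenchymal transcription factor and 7 of 27 osteoblast lineage genes, all lists with under 10 distal peaks per Mb, beside 14.9% of all protein-coding genes. Stromal niche and adhesion genes had them at 6 of 19 and BMP and TGF-beta genes at 5 of 28, with higher densities. Neuronal genes had 1 of 37 and the receptor genes 86 of 1452, both at high density, and macrophage and blood genes 1 of 15. The adipocyte, chondrocyte and endothelial list had 1 of 13 and the lowest density of the 11. Small lists had few distal peaks, 12 beside macrophage and blood genes (15.1 per Mb, 7.79 to 26.3) and 6 beside adipocyte, chondrocyte and endothelial genes (5.67, 2.08 to 12.4). Chromosome 13, which is sparse in peaks, touches some lists. Without it the osteoblast lineage value was 8.31, the BMP and TGF-beta value 13.1 and that of all distal sequence 14.8. Base composition and mappability of the stretches were not available, and their part in these differences was not tested.

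**Figure D4:**
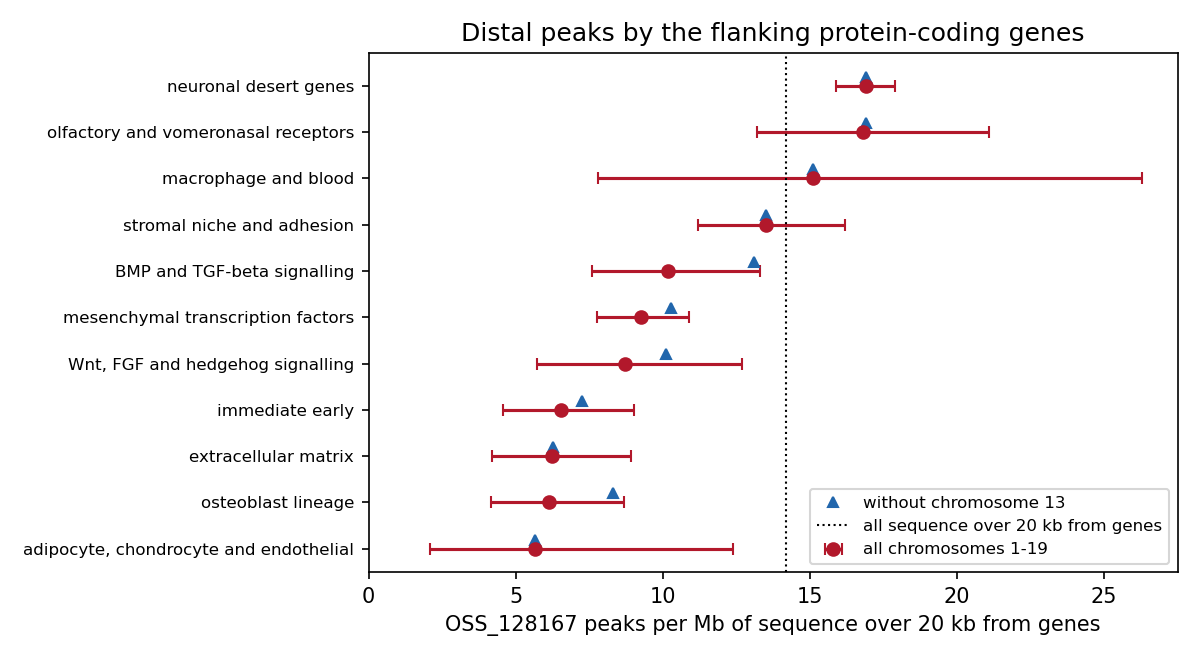
OSS_128167 distal peaks per Mb of sequence more than 20 kb from genes (x axis) for stretches flanked by the genes of 11 lists (y axis), with exact 95% Poisson intervals for counting and triangles for the values without chromosome 13. The dotted line is the density of all such sequence, 14.2, and the intervals of the osteoblast lineage (6.13), matrix (6.25) and immediate early (6.53) lists lie below it. So do those of the adipocyte, chondrocyte and endothelial (5.67), Wnt, FGF and hedgehog (8.71), mesenchymal transcription factor (9.25) and BMP and TGF-beta (10.2) lists.

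Among osteoblast lineage genes distal peaks with an FDR of at most 0.05 lay beside 2 of the 21 members that have distal sequence. These were Dlx6, a homeobox factor (1 peak, fold 3.61), and Tnfrsf11b, which encodes osteoprotegerin, the decoy receptor that restrains osteoclasts (1 peak in 366 kb, 3.59). Sox11 had 16 peaks in 1089 kb, none at this limit, with a highest fold of 3.23. Sox9, the chondrocyte factor with a large desert, had 5 peaks in 903 kb, a highest fold of 3.17 and a gene-end fold of 3.90. Over the list 2 of 31 distal peaks (6.45%) had an FDR of at most 0.05, beside 10.7% of all. The share of genes with such a peak was not counted over all protein-coding genes, so 2 of 21 is not read as high or low.

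Among signalling genes Bmp2, a bone morphogenetic protein, had 21 distal peaks in 1095 kb, 2 of them at an FDR of at most 0.05, with a highest fold of 3.55. Id2, an inhibitor of helix-loop-helix factors, had 9 in 509 kb, also with 2 and up to 3.95. Dkk2, a secreted Wnt antagonist, had 7 with 2 at this limit and up to 3.85. Sfrp1, another Wnt antagonist, and Shh, the hedgehog ligand, had 4 each with 1 at this limit, and Fzd1, a Wnt receptor, had 3 with 1. Over the lists, 4 of the 52 distal peaks beside BMP and TGF-beta genes and 5 of the 27 beside Wnt, FGF and hedgehog genes had an FDR of at most 0.05. These shares, 7.69% (2.14 to 18.5) and 18.5% (6.30 to 38.1), have intervals that include the 10.7% of all distal peaks. They lay beside 2 of 22 and 4 of 15 members that have distal sequence, and the same share over all protein-coding genes was not counted.

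Of the 21 matrix genes that have distal sequence 7 had a distal peak, and Col12a1 (427 kb), Dcn (259 kb) and Col1a2 (232 kb) had 0. The share over all protein-coding genes with distal sequence was not counted, so 7 of 21 is not read as high or low. The 4 matrix genes with most support ranged from below to about the density of all distal sequence. Has2, a hyaluronan synthase, had 11 distal peaks with 1 at an FDR of at most 0.05, Col3a1, a fibrillar collagen, 2 with 1 (fold 3.85) and Thbs2, a matricellular protein, 1 with a fold of 3.65. Col11a1 had 13 peaks, none at this limit. The densities were 11.7, 6.69, 7 and 14.9 per Mb, and of these 4 genes Col3a1 had a gene-end peak (3.03). Among immediate early genes Klf4 had 4 distal peaks in 687 kb, 2 at this limit and up to 3.99, Myc 9 in 1587 kb with 1, and Nr4a2 and Klf6 had 12 and 5 with 0. The gene-end folds of these 4 transcription factors were 4.39, 5.24, 2.16 and 4.31. Over the lists 3 of 30 distal peaks beside matrix genes (10.0%) and 3 of 36 beside immediate early genes (8.33%) were at this limit, beside 10.7% of all.

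Mesenchymal transcription factor genes with large deserts had more peaks in number but not per Mb. Zeb2, a regulator of mesenchymal state, had 21 peaks in 2456 kb, 4 at an FDR of at most 0.05 and up to 4.25. Meis1 (12 peaks) and Nfia (7) had 2 each at this limit. The densities of these 3 were 8.55, 13.8 and 11.4 per Mb, and over the list 13 of 140 distal peaks (9.29%) were at this limit, beside 10.7% of all. Of the stromal niche and adhesion genes Cdh2, which encodes N-cadherin, had 44 peaks in 2819 kb with 7, and Cdh11, the osteoblast cadherin, 41 in 3065 kb with 3. Angpt1 had 7 with 2 and Igfbp3, a carrier of insulin-like growth factors, 17 with 1. The densities of these 4, 15.6, 13.4, 20.7 and 16.9 per Mb, lay around that of all distal sequence. The protocadherin genes Pcdh17, Pcdh7 and Pcdh10 had 77, 95 and 54 peaks with 10, 9 and 9 at this limit, and Ptprd, a receptor phosphatase gene, 45 with 9.

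The stretches with the most distal peaks were long, and several bordered on genes of neural adhesion. Each gap between neighbouring genes is a stretch, and 3004 of 7331 (41.0%) held a distal peak. The maximum of 28 was reached between Gm34430 and Gm39919 on chromosome 2 (803 kb, flanked by Sqor and Sema6d, 34.9 per Mb) and on chromosome 15 between the cadherin genes Cdh6 and Cdh9 (1271 kb, 22.0 per Mb). Next were stretches by Ptprd (27 peaks), Kctd16 (26), Grm7, a glutamate receptor (26), Epha7, an ephrin receptor (25), Brinp3 (23, of which 6 had an FDR of at most 0.05), Ncam2, a neural adhesion molecule (23), Cntnap2 (22) and Cdh2 (19).

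Ranked by density the leading stretches were shorter. Among 848 stretches of at least 200 kb the quartiles were 9.02, 14.9 and 20.7 peaks per Mb. The highest values were 48.7 per Mb by Pdha2 (10 peaks in 206 kb), 47.6 between Cntn5 and Jrkl (11 in 231 kb), 45.8 by Dpp6, an auxiliary subunit of potassium channels (13 in 284 kb), 44.8 between the receptor genes Oprk1 and Npbwr1 (12 in 268 kb) and 44.0 by Lrrn1 (13 in 295 kb). After these came the stretches by Cntn6 and Cntn4, contactins of axons (43.2), Grm7 (43.1), Celf4 (42.6), Arap2 (39.9) and Triqk (38.6). No distal peak was found in 53 of the 848 stretches, 22 of them on chromosome 13, which has 46.

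Close groups were small. Distal peaks joined across gaps of at most 10 kb gave 1193 groups holding 2638 peaks (29.7%, 28.7 to 30.6), of which 993 were pairs, 160 had 3 peaks, 31 had 4, 6 had 5 and 3 had 6. The median span of a group was 5.39 kb. An FDR of at most 0.05 was found in 12.1% of grouped (10.9 to 13.4) and 10.1% of single distal peaks (9.40 to 10.9). A neighbouring listed peak of any kind lay within 10 kb of 31.1% of distal peaks (30.1 to 32.0), against 53.9% (52.3 to 55.5) at 1 to 5 kb from genes and 38.5% (37.6 to 39.5) inside long genes. At 5 to 20 kb from genes the share was 35.6% (34.2 to 37.0).

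The largest groups beside that of let-7 were looser. On chromosome 10, from 11835484 to 11865143 between Epm2a and Utrn, which encodes the dystrophin relative utrophin, 6 peaks in 29.7 kb had folds of 3.19, 4.15, 2.26, 3.32, 4.21 and 2.76, with an FDR of at most 0.05 in 2. In the Grm7 desert, 6 peaks in 15.9 kb had folds of 1.87 to 4.06 and 1 at this limit. Between Nxph1 and Ndufa4 on chromosome 6, 5 peaks in 13.5 kb had 2.41 to 4.25 with 2, and by Pdha2 on chromosome 3, 5 peaks in 25.2 kb had 2.16 to 3.61 with 1.

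Across chromosomes the distal density of the OSS_128167 list was even but for chromosome 13. It was 3.01 per Mb there (2.43 to 3.68, 94 peaks in 31.2 Mb) and 13.0 to 17.2 on the other 18. The rest of chromosome 13 was sparse too, with 6.21 peaks per Mb against 15.7 to 21.2 elsewhere, so both kinds of sequence were low on this chromosome.

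**Figure D5:**
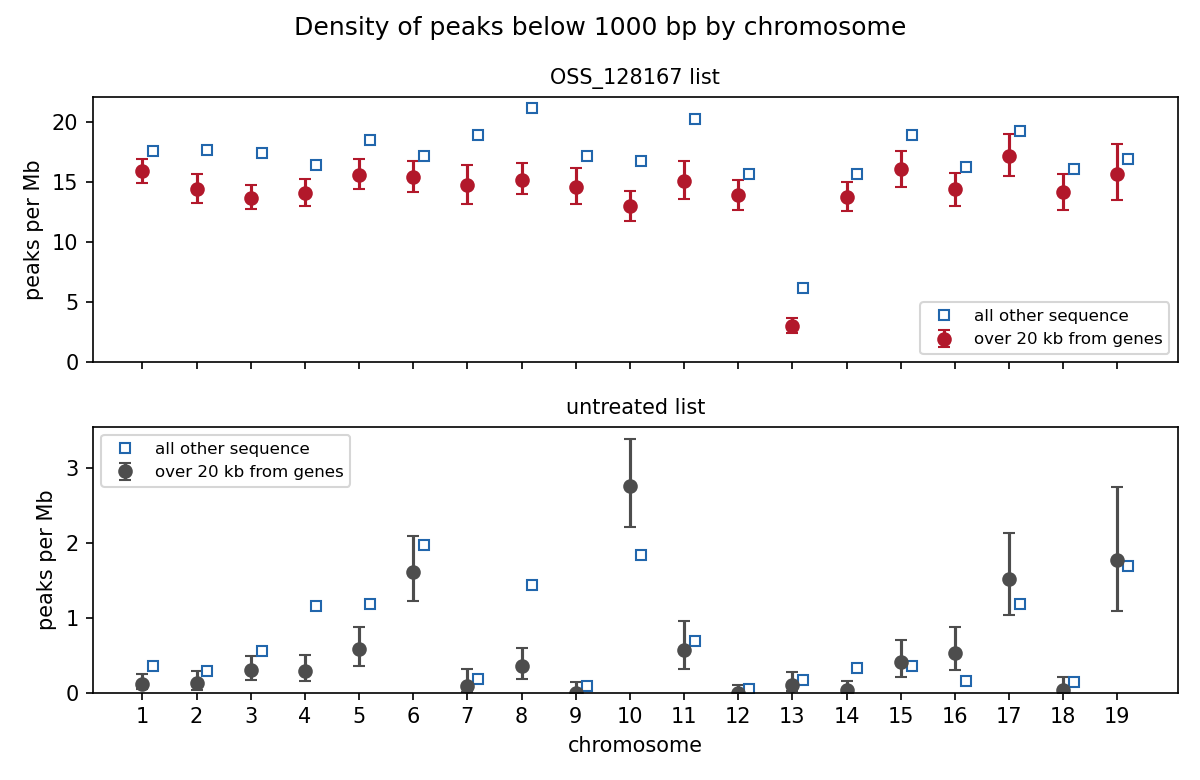
Peaks below 1000 bp per Mb (y axis) on chromosomes 1 to 19 (x axis) in the OSS_128167 list (top) and the untreated list (bottom). Filled points are sequence more than 20 kb from genes with exact 95% Poisson intervals for counting, open squares all other sequence. Chromosome 13 is low in the OSS_128167 list (3.01 and 6.21), and chromosomes 6, 10, 17 and 19 are high in the untreated list.

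The untreated list held far fewer distal peaks, with little support. Its 324 members had folds of 2.47 to 5.66 with a median of 3.26, and 286 (88.3%) had an FDR of 1. An FDR of at most 0.05 was reached by 6 (1.85%, 0.683 to 3.99), beside 6.11% of all untreated peaks below 1000 bp on these chromosomes. The density was 0.517 per Mb (0.462 to 0.577) in distal sequence, 0.808 at 1 to 5 kb from genes and 0.842 within 1 kb. Chromosomes 6, 10, 17 and 19 held 201 of the 324 (62.0%) and 16.2% of the distal sequence, against 17.1% of the OSS_128167 members, and 0 of the 201 had an FDR of at most 0.05. Chromosome 10 alone reached 2.76 per Mb (2.22 to 3.39).

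The 5 untreated distal peaks of highest fold were not among the shared positions. They were 5.66 on chromosome 13 from 3408468 to 3409072, 129 kb from Gdi2 (FDR 0.00396), 5.34 on chromosome 3 in the desert before Ralyl (FDR 0.0305), 4.91 on chromosome 10 between Ctnna3 and Reep3 (FDR 0.147), 4.74 on chromosome 5 by Gm17019 (FDR 2.40e-10) and 4.64 on chromosome 6 before Samd9l (FDR 0.147). The peak by Gm17019 had an implied background 8.39 times the lowest of its list, against 1.00 to 1.05 in the other 4. The largest group, 9 peaks in 16.5 kb on chromosome 16 from 3243266 to 3259795, lay before Olfr161, the first coding gene of that chromosome past 3 Mb, and 1 of its peaks had an FDR of at most 0.05.

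Hardly any distal position was shared. Of 8890 OSS_128167 members 4 overlapped an untreated peak by at least 1 bp (0.0450%, 0.0123 to 0.115), a share that the length of the untreated list limits. Of its 324 distal peaks these are 4 (1.23%, 0.337 to 3.13). Of 31199 OSS_128167 peaks within 20 kb of genes or inside them 79 overlapped an untreated peak (0.253%, 0.201 to 0.315). The 4 lay between Zfp980 and Zfp987 on chromosome 4 (OSS_128167 fold 2.33, untreated fold 2.95), between Olig3 and Ifngr1 on chromosome 10 (2.75 and 3.51), between Smim10l1 and 5530400C23Rik on chromosome 6 (3.17 and 3.87) and near Gm19428 on chromosome 13 (3.30 and 3.49). All 4 untreated peaks had an FDR of 1, and of the OSS_128167 peaks the one on chromosome 13 had an FDR of at most 0.05 (0.0121). Folds of the lists are set side by side and not compared, since each is relative to its own library.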

How the data were processed

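The submitters' processing notes name fastp, BWA and mm10. Which caller made the peaks, at which threshold and with which control is not given in the sources used here. The list of each condition, deposited by the authors, holds, for each peak, its p-value and FDR, its fold over background, which is a ratio, and its pileup, a signal height. Over chromosomes 1 to 19 the largest p-value that the caller gave was 0.00999 for OSS_128167 peaks and 0.00956 for untreated ones, so both lists are permissive. The median FDR of distal OSS_128167 peaks was 0.377. Positions count from 1. Genes came from the RefSeq table of GRCm38.p6, with 46710 genes on chromosomes 1 to 19. Of the table's rows 328 below 3 Mb, where neither list has a peak, were left out of the territory between genes, which left the members unchanged. Distances run from the edge of a peak to the nearest gene boundary. Intervals are exact (Clopper-Pearson for shares, Poisson for densities), at 95%, and cover counting only. Distances were tested on simulated data, where 0 of 500 differed from a base-by-base search. Software was matplotlib 3.10.9, scipy 1.17.1, pandas 2.3.3, numpy 2.4.6 and Python 3.11.15. Members, gene lists and the rule for named genes (20 OSS_128167 and 5 untreated peaks of highest fold, 10 stretches by count and by density, 5 largest groups, up to 4 genes per list, shared peaks) were chosen with earlier results of these data known. Runs across 2 kb, values without chromosome 13, gene rows below 3 Mb left out or kept, list densities without their top stretch, flanking genes at an FDR of at most 0.05 and receptor genes without Olfr161 were added after the data were seen. No genome sequence was used here, so sequences are limited to RefSeq promoter and microRNA entries. Some peaks and genes that the rule names are not reported here.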

Additional observations from a re-analysis of the deposited data

How the results depend on the processing

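Of 88 alternative values 63 stayed within the interval of the reported value (counts: within 1.5 times) and 25 moved. This rule does not follow on which side of all distal sequence a list lies. Beside macrophage and blood genes 15.1 per Mb became 10.9 without the top stretch, from above to below 14.2 but within its interval. The count of 8890 OSS_128167 members became 5402 beyond 50 kb, 14334 with distance from protein-coding genes only and 954 where FDR was at most 0.05. For the untreated list 324 became 170, 600 and 6. The density of 14.2 per Mb was 13.8 beyond 10 kb, 15 beyond 50 kb, 13.6 with protein-coding genes only, 1.52 at that FDR, 12.6 without 123 dense 1 Mb bins, 14.8 without chromosome 13 and 13.5 with the gene rows below 3 Mb kept. The median fold of 2.87 became 3.59 at that FDR. The share in groups, 29.7%, was 5.66% at that FDR, 26.7% without the dense bins, 18.3% with gaps of at most 5 kb and 53.4% with 25 kb. The 4 shared positions became 1 beyond 50 kb, 16 with protein-coding genes only, 0 at that FDR and 9 when gaps of 1 kb counted. Beside 0 flanking genes with a gene-end peak the density was 15.3 without chromosome 13, and beside 1 it was 9.86 with gene-end peaks at an FDR of at most 0.05. Untreated density beside olfactory and vomeronasal receptor genes, 4.31, was 1.22 without Olfr161. The alternatives change which peaks or sequence count, or the rule for joining or overlap, and other causes were not tested. The share at an FDR of at most 0.05 has no value among peaks already chosen by it. No paired analysis was possible because each condition has 1 library. Depth is unknown, so absence from the untreated list is not absence of Pol II.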

Other observations

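The gene nearest to a distal OSS_128167 peak was a pseudogene for 3608 peaks (40.6%, exact 95% interval 39.6 to 41.6), a long non-coding RNA gene for 2581 (29.0%), a protein-coding gene for 1655 (18.6%) and a small RNA gene for 1046 (11.8%). These classes bordered 37.7%, 30.9%, 20.6% and 10.8% of the distal sequence, so the densities were 15.3, 13.3, 12.8 and 15.5 per Mb. The median distance to the nearest protein-coding gene was 252 kb, and 2482 distal peaks lay over 500 kb from any.

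In the untreated list the stretches beside olfactory and vomeronasal receptor genes held 19 distal peaks (4.31 per Mb, 2.60 to 6.74), against 0.517 over all distal sequence, and 1 of the 19 had an FDR of at most 0.05. Of these 14 lay beside Olfr161 (309 kb on chromosome 16), and without it 5 peaks in 4.10 Mb remained (1.22 per Mb, 0.396 to 2.85). The OSS_128167 list had 74 peaks (16.8 per Mb) beside the whole list, 4 of them beside Olfr161. Of the 246 stretches with an untreated distal peak 171 also held an OSS_128167 one, while 78 OSS_128167 members (0.877%) lay within 10 kb of an untreated peak.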
